A study of Mus musculus with 8 samples.

Results

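The odorant receptors (ORs) described here are those of mouse chromosome 14, taken by symbol: Olfr722 to Olfr752, a large cluster, and Olfr1507 to Olfr1513, a small cluster that lies beside the H enhancer. On GeneChip Mouse Gene 1.0 ST arrays, 31 transcript clusters, here called rows, carried a single symbol in these ranges, of 1035 OR rows and of 23410 rows tested. The large cluster held 26 of the 31 and the H cluster held 5, namely Olfr1507, Olfr1508, Olfr1509, Olfr1510 and Olfr1512. Another 4 rows carried several symbols, at least 1 of them in these ranges, and were not used. The samples were olfactory mucosae of newborn mice at postnatal day 1, on a mixed 129 x C57BL/6J background, and the methods state that both sexes were used. There were 4 Emx2 knockouts of genotype 123Cre:Emx2(fl/fl), and 4 control littermates, of which 2 were 123Cre:Emx2(fl/+) and 2 were Emx2(fl/fl) without Cre. A control of the Cre-carrying genotype has 1 floxed allele that can recombine, so that controls 1 and 4 may have lost Emx2 from 1 allele in some olfactory sensory neurons (OSNs), while controls 2 and 3 lack Cre. Expression of 123Cre starts in immature OSNs, and other cells of the mucosa that express Emx2 keep it, so the tissue of a knockout was still expected to hold Emx2 mRNA.

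An OSN transcribes a single allele of a single OR gene, chosen from a repertoire spread over many genomic clusters. Enhancers between OR genes take part in this choice, and the H enhancer, the earliest described of them, acts on the OR genes next to it, among them Olfr1507, also called MOR28. Such enhancers carry homeodomain sites beside Ebf sites, which are bound by the homeodomain protein Lhx2 and by Ebf proteins, with Ldb1 as an adaptor. Many OR promoters carry homeodomain sites as well. Emx2 is a homeodomain protein of OSNs, and the comparison asks how OR mRNAs differ when it is deleted in OSNs by a Cre that may not act in all of them. In a whole mucosa, fewer cells that express an OR and less OR mRNA per cell cannot be told apart.

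Sequences upstream of 6 members are shown. Olfr1510, Olfr1509 and Olfr1508 are the H cluster members for which a RefSeq promoter sequence was held. Olfr725, Olfr726 and Olfr730 come from the run of neighbouring genes with the highest differences, knockout minus control. Each is the 250 bases before the annotated gene start in RefSeq (GRCm38.p6), read 5′ to 3′ along the gene's strand, and capitals mark the homeodomain cores TAATTA or TAATGA on either strand (TCATTA is TAATGA on the opposite strand).
Olfr1510 (chr14:52410928-52411177, minus strand): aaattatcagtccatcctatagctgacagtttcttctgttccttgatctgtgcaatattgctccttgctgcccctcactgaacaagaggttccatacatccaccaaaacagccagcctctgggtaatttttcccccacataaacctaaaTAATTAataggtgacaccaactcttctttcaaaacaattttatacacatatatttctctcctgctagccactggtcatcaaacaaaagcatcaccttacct
Olfr1509 (chr14:52450143-52450392, plus strand): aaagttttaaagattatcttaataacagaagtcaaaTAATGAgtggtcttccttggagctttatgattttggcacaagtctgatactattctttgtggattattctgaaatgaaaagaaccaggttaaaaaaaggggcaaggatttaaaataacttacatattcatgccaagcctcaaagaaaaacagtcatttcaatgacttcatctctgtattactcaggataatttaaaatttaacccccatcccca
Olfr1508 (chr14:52467462-52467711, minus strand): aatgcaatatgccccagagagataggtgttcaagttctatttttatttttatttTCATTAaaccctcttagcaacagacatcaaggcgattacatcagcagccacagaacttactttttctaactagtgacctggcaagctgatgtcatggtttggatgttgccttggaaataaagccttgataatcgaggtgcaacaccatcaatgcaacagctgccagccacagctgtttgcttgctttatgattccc
Olfr725 (chr14:50035501-50035750, minus strand): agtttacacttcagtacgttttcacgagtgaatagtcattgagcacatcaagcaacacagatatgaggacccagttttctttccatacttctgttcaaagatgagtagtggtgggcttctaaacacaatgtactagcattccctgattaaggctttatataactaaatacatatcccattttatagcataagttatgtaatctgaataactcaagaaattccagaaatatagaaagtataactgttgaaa
Olfr726 (chr14:50084680-50084929, minus strand): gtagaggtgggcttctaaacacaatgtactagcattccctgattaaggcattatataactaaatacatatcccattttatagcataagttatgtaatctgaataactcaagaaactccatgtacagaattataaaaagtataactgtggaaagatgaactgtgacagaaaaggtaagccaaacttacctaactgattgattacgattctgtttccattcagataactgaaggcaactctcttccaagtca
Olfr730 (chr14:50187219-50187468, minus strand): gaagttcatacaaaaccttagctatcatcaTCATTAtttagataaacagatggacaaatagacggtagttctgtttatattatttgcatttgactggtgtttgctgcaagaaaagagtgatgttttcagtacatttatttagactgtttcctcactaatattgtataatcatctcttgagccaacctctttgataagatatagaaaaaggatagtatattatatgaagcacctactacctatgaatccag
The capitals show a TAATTA core 101 bases before the start of Olfr1510, and TAATGA cores 214 bases before Olfr1509, 196 bases before Olfr1508 and 220 bases before Olfr730, counted from the start of the gene to the leftmost base of the core. The sequences before Olfr725 and Olfr726 held neither core. Olfr725 and Olfr726 shared an unbroken run of 64 bases, which began 96 bases before the start of Olfr725 and 200 bases before that of Olfr726. The annotated span of Olfr726 is 966 bases and that of Olfr730 is 957 bases, close to a coding sequence alone, whereas those of Olfr725 and Olfr1508 are 6148 and 4741 bases, so that the distance from the printed bases to the true transcription start can differ between genes. RefSeq promoter windows (250 bases before and 50 after the start) were held for 25 of the 31 members, and were missing for Olfr727, Olfr728, Olfr735, Olfr741, Olfr1507 and Olfr1512.

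Over these 25 windows, searched on both strands, TAATTA was found in 6 (24.0%), against 18.4% of 923 windows of OR genes elsewhere and 5.29% of all 32851 windows. TAATGA was found in 10 of the 25 (40.0%), against 28.5% of other OR windows and 9.78% of all windows. Matches to TAATTA and TAATGA can overlap. The TATA box TATAAA was found in 11 (44.0%), against 41.0% of other OR windows and 13.6% of all windows. The Ebf pattern CCCNNGGGA was found in none of the 25, against 2.6% of other OR windows and 6.56% of all windows. In the H cluster, Olfr1508 and Olfr1509 each had a further TAATGA core, 36 and 15 bases after the start. Within the large cluster, the windows of Olfr746 and Olfr748 were 96.3% identical over 300 bases. Such matches describe the letters in these windows and are not evidence of binding.

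Emx2 was checked in every sample before the ORs. Its log2 value was 10.80, 10.86, 11.00 and 10.72 in controls 1 to 4 and 9.80, 9.86, 10.01 and 9.93 in knockouts 1 to 4, so the groups did not overlap. Emx2 fell by 0.94 on the log2 scale (SE 0.082, limma adjusted p = 0.0014). Lhx2 (difference -0.0040, SE 0.067), Ldb1 (0.04, SE 0.097) and Ebf1 to Ebf4 (between -0.13 and 0.01) did not pass the test. The 18 markers of mature OSNs averaged 11.45 to 11.58 in controls and 11.33 to 11.47 in knockouts, which overlapped. At an unadjusted p under 0.05, 5 were lower and 1 higher, where 716 of all 23410 rows were lower and 711 higher. At an adjusted p under 0.05 there were 0. Omp, the marker protein of mature OSNs, was 12.86 to 13.07 in controls and 12.80 to 12.94 in knockouts, and the groups overlapped. The 15 markers of immature OSNs, the stage at which 123Cre starts, averaged 11.50 to 11.65 in controls and 11.40 to 11.48 in knockouts, which did not overlap. Of these, 4 were lower at an unadjusted p under 0.05, beside the same 716 of 23410 rows, and 0 at an adjusted p under 0.05. Among them Gap43, a growth protein of axons, differed by -0.23 (SE 0.068). The 2 dorsal zone markers averaged 11.90 to 12.16 in controls and 11.28 to 11.77 in knockouts, which did not overlap. Of these, Nqo1 did not overlap (11.32 to 11.59 in controls and 10.52 to 11.18 in knockouts). Acsm4 overlapped (12.41 to 12.74 and 12.04 to 12.55). Among all single rows, 4.52% did not overlap. The 2 ventral zone markers averaged 10.54 to 10.91 and 10.28 to 10.86, which overlapped. The 9 markers of respiratory ciliated cells averaged 9.71 to 9.87 in controls and 9.78 to 10.11 in knockouts, and 7 genes of the olfactory bulb and brain averaged 7.69 to 8.24 and 7.57 to 7.92. Their part in the OR values was not tested.

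Knockout replicate 2 stood apart for ORs, but not for ORs alone. It was also the lowest of all 8 samples in some other rows, such as Slc17a6 (10.29), Dcx (11.18) and Ermn (9.53). In others, such as Omp (12.91), it was not, and such rows were not counted. Array weights gave it 0.17, the lowest of all samples. The mean over the 1004 OR rows outside the 2 ranges was 6.97 in this sample, and 7.27 to 7.69 in the other 7. It was the lowest of all 8 samples in 22 of the 31 members. In how many of the other OR rows it was the lowest was not counted. For that reason the differences of the members named below are also given without it. Since it was chosen in part for low values in these same rows, leaving it out raises most of their differences by construction. The p-values without it do not account for that choice. The samples with the lower OR means, control 2 and knockouts 1 and 2, also came from the first 4 samples by the number in their title.

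No chromosome 14 OR passed the test over all rows. The lowest adjusted p among the 31 was 0.687, where 84 of 23410 rows (0.359%) were called at an adjusted p under 0.05. At an unadjusted p under 0.05, 2 of the 31 members differed, Olfr1512 lower and Olfr1509 higher, both in the H cluster, beside 6.1% of all rows and 16.1% of the other OR rows. Among the other OR rows 13.8% were lower at that threshold, where 1 of the 31 members was. The median difference, knockout minus control, was -0.04 over the 26 rows of the large cluster and 0.06 over the 5 of the H cluster, beside -0.19 over the 1004 other OR rows and 0.0041 over all rows. Below 0 were 17 of the 31 members (54.8%) and 779 of the 1004 other OR rows (77.6%). The 95% intervals of single members reached from 0.22 to 0.92 on either side of their difference. With 4 arrays a group, a difference smaller than its own interval's reach has no unadjusted p under 0.05, and the adjusted test asks for larger ones.

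**Figure D1:**
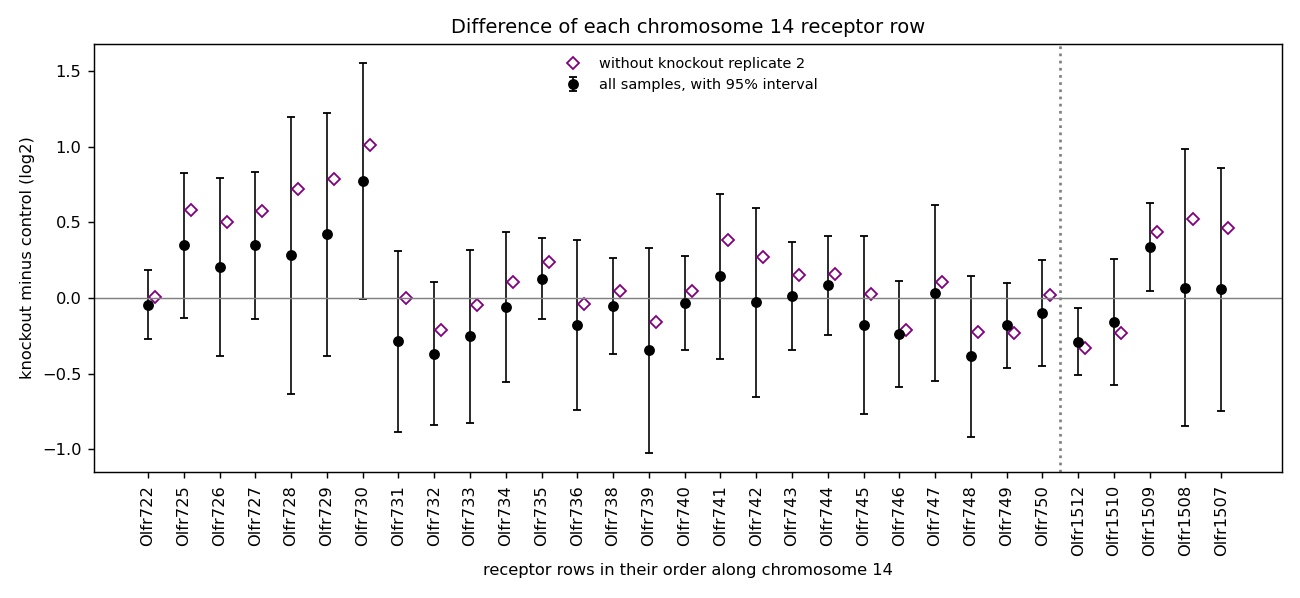
Difference in log2 value, knockout minus control, of the 31 chromosome 14 OR rows in gene order, with the H cluster right of the dotted line. Filled points with 95% intervals use all 8 samples and open diamonds leave out knockout replicate 2; Olfr725 to Olfr730 and Olfr1509, Olfr1508 and Olfr1507 sit above 0 and higher without that sample, and Olfr1512 sits below 0 both ways.

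Olfr1507 (MOR28), Olfr1508 (MOR10) and Olfr1509 (MOR83) form family MOR244, and Olfr1510 and Olfr1512 belong to family MOR223. Along the chromosome the order is Sall2, Olfr1513, Olfr1512, Olfr1511, Olfr1510, Olfr1509, Olfr1508 and Olfr1507, followed by T cell receptor alpha variable genes. Each MOR244 row was higher in knockouts 1, 3 and 4 than in the control mean, and neither MOR223 row was higher in all of these. The families were grouped after values were seen, and a difference between them was not tested.

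Olfr1507 was 8.35, 8.75, 8.34 and 8.15 in controls 1 to 4 and 8.78, 7.24, 8.96 and 8.84 in knockouts 1 to 4. Knockouts 1, 3 and 4 lay above every control, and knockout 2 lay far below them all. The difference was 0.06 (SE 0.354) with all samples and 0.46 (SE 0.133, limma unadjusted p = 0.0081, adjusted p = 0.304) without knockout 2.

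Olfr1508 was 7.70, 7.87, 7.89 and 8.18 in controls 1 to 4 and 8.08, 6.61, 8.54 and 8.68 in knockouts 1 to 4. Knockouts 3 and 4 were the highest, knockout 1 lay within the control range, and knockout 2 was the lowest. The difference was 0.07 (SE 0.404), and 0.52 (SE 0.160, limma unadjusted p = 0.0106, adjusted p = 0.325) without knockout 2.

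Olfr1509 was 6.05, 6.20, 5.79 and 6.13 in controls 1 to 4 and 6.57, 6.09, 6.35 and 6.51 in knockouts 1 to 4. Again knockouts 1, 3 and 4 lay above every control, while knockout 2 lay among them. The difference of 0.34 (SE 0.128), or 26.4% higher, had a limma unadjusted p of 0.0274 and an adjusted p of 0.764. Without knockout 2 the difference was 0.44 (SE 0.108, adjusted p = 0.218). This row lay below 7.475, the mean level under which the dimmest 30% of rows fell, as did all but 19 of the 31 members.

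Olfr1512 was 8.004, 7.76, 7.94 and 7.82 in controls 1 to 4 and 7.39, 7.72, 7.71 and 7.56 in knockouts 1 to 4. It was the only one of the 31 members whose groups did not overlap, where 4.52% of all rows and 6.77% of the other OR rows did not. The difference of -0.29 (SE 0.096), a change of -18.1%, had a limma unadjusted p of 0.0154 and an adjusted p of 0.687. Without knockout 2 it was -0.33 (SE 0.097, adjusted p = 0.308).

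Olfr1510, its neighbour of the same family, was 9.26, 9.06, 9.34 and 8.85 in controls 1 to 4 and 8.42, 9.17, 9.14 and 9.13 in knockouts 1 to 4. Only knockout 1 lay outside the control range, and knockout 2 was the highest of the knockouts, unlike in the MOR244 rows. The difference was -0.16 (SE 0.183) and did not pass the test. It was -0.23 (SE 0.192) without knockout 2 and 0.020 without knockout 1, so its direction rested on knockout 1.

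**Figure D2:**
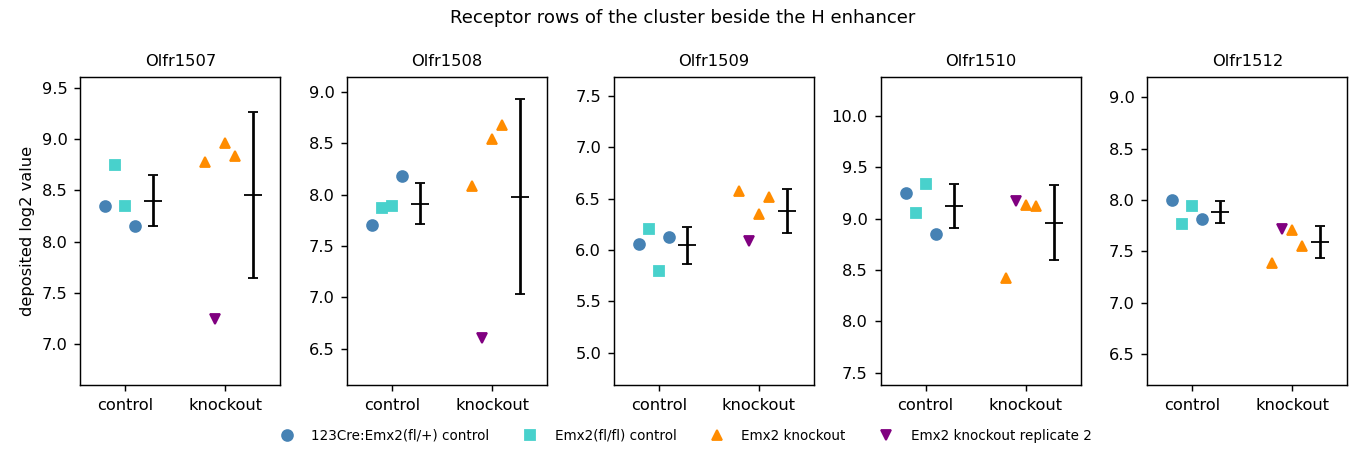
Log2 value of the 5 H cluster rows in each sample, with the mean and SD of each group of 4 as bars; every panel spans the same number of log2 units. Knockout replicate 2 (downward triangle) is far below the other samples for Olfr1507 and Olfr1508, and all 4 knockouts are below all controls for Olfr1512.

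In the large cluster, 0 of the 26 rows differed at an unadjusted p under 0.05 with all samples, and differences ran from -0.38 to 0.77. The 5 highest were Olfr730, Olfr729, Olfr725, Olfr727 and Olfr728, which are neighbours within the run Olfr725 to Olfr731 near the start of the cluster. This run holds the 6 rows of family MOR246 and Olfr730, the sole row of MOR247.

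Olfr730 was 8.14, 7.24, 8.44 and 8.42 in controls 1 to 4 and 8.57, 8.11, 9.27 and 9.37 in knockouts 1 to 4. Knockouts 1, 3 and 4 lay above every control, and control 2 was the lowest sample by far. The difference was 0.77 (SE 0.343), a fold of 1.71, with a limma unadjusted p of 0.0519 and an adjusted p of 0.819. Without knockout 2 it was 1.01 (SE 0.311, adjusted p = 0.332), and without control 2 it was 0.50 (adjusted p = 0.936).

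Olfr725 was 7.60, 7.58, 7.31 and 7.34 in controls 1 to 4 and 8.01, 7.10, 8.03 and 8.08 in knockouts 1 to 4. The values of knockouts 1, 3 and 4 lay close together and above every control, and that of knockout 2 was the lowest. The difference was 0.35 (SE 0.212, adjusted p = 0.920) with all samples. Without knockout 2 it was 0.58 (SE 0.091) and passed the test (limma adjusted p = 0.0365), the only member to do so, where 0.564% of all rows passed. That sample was left out after its low values in the members were seen, which this p-value does not account for. Leaving out any other sample gave 0.25 to 0.40, with no adjusted p under 0.05.

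Olfr726 was 9.35, 9.29, 9.23 and 9.05 in controls 1 to 4 and 9.63, 8.54, 9.82 and 9.75 in knockouts 1 to 4. Olfr727 was 10.06, 10.28, 9.99 and 9.87 in controls and 10.53, 9.71, 10.80 and 10.54 in knockouts. Both showed the order seen for Olfr725, with knockout 2 lowest and the other knockouts above every control. Their differences were 0.21 (SE 0.259) and 0.35 (SE 0.214), and without knockout 2 they were 0.50 (SE 0.089, adjusted p = 0.067) and 0.57 (SE 0.114, adjusted p = 0.103). Without knockout 3 the difference of Olfr727 was 0.21.

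Olfr728 was 7.45, 7.57, 7.87 and 8.31 in controls 1 to 4 and 8.48, 6.77, 8.32 and 8.76 in knockouts 1 to 4. Olfr729 was 7.66, 7.32, 7.51 and 8.03 in controls and 8.003, 6.95, 8.70 and 8.55 in knockouts. For both, knockout 2 was the lowest sample, and control 4 lay just below the next knockout for Olfr728 and just above it for Olfr729. The differences were 0.28 (SE 0.404) and 0.42 (SE 0.353), and 0.72 (SE 0.202, adjusted p = 0.284) and 0.79 (SE 0.203, adjusted p = 0.236) without knockout 2. Olfr728 had a difference of 0.057 without knockout 4 and was 0.17 without control 1, 0.15 without knockout 1 and 0.45 without control 4, and Olfr729 was 0.20 without knockout 3 and 0.25 without knockout 4.

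Olfr731, the last gene of the run, did not share this pattern. It was 7.30, 7.49, 7.65 and 7.70 in controls 1 to 4 and 7.78, 6.40, 7.49 and 7.32 in knockouts 1 to 4, with the groups overlapping. Its difference was -0.29 (SE 0.263), and -0.0037 (SE 0.132) without knockout 2.

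**Figure D3:**
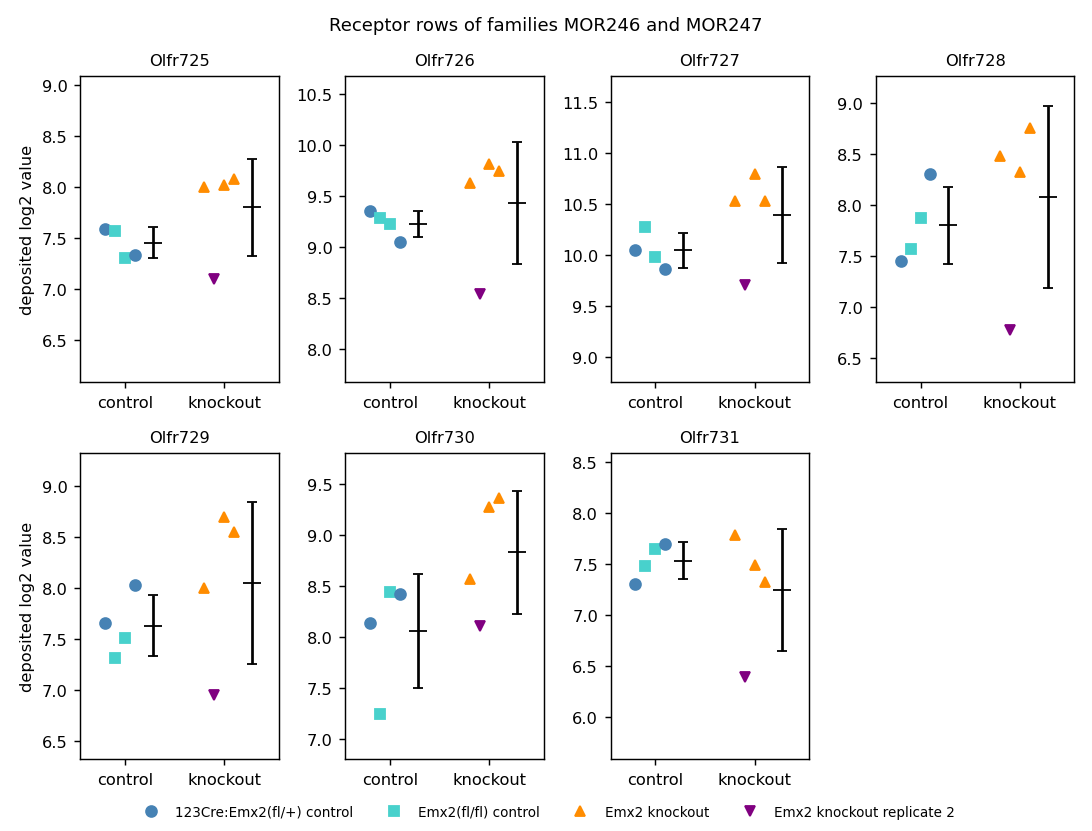
Log2 value of the 7 neighbouring rows Olfr725 to Olfr731 in each sample, with the mean and SD of each group of 4 as bars. Knockouts 1, 3 and 4 are above all controls for Olfr725, Olfr726, Olfr727, Olfr728 and Olfr730, and knockout replicate 2 is the lowest sample in every panel but that of Olfr730.

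The lowest differences of the large cluster were those of Olfr748, Olfr732, Olfr739, Olfr731 and Olfr733, at -0.38, -0.37, -0.35, -0.29 and -0.25. Olfr748 was 8.07, 7.22, 8.03 and 7.84 in controls 1 to 4 and 7.27, 6.92, 7.78 and 7.65 in knockouts 1 to 4. Olfr732 was 7.63, 7.51, 8.29 and 7.75 in controls and 7.36, 6.96, 7.72 and 7.66 in knockouts. In both rows knockout 2 was the lowest sample and the groups overlapped. Olfr739 ran from 5.93 to 6.85 in controls and from 5.61 to 6.76 in knockouts, and Olfr733 from 7.95 to 8.70 and from 7.496 to 8.60. None of the 5 passed the test, and without knockout 2 their differences were between -0.22 and -0.0037.

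The large family MOR106, 13 rows from Olfr736 to Olfr749, had differences from -0.38 to 0.14 with a median of -0.05, and 4 of the 13 were above 0. Without knockout 2 they ran from -0.23 to 0.38 with a median of 0.05, and 8 of the 13 were above 0. Olfr732, Olfr733 and Olfr722 of family MOR241 were all below 0, with a median of -0.25, and without knockout 2 the median was -0.05 and 1 of the 3 was above 0. Olfr735 of family MOR243 was 6.97 to 7.17 in controls and 7.34, 6.89, 7.25 and 7.42 in knockouts 1 to 4, so knockouts 1, 3 and 4 lay above every control. Its difference was 0.13 (SE 0.117), and 0.24 (SE 0.076, limma adjusted p = 0.350) without knockout 2. Olfr734 of MOR242 and Olfr750 of MOR103 differed by -0.06 (SE 0.219) and -0.10 (SE 0.154), and by 0.11 (SE 0.188) and 0.02 (SE 0.128) without knockout 2, so both signs turned with that sample.

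Without knockout 2, 11 members were higher at an unadjusted p under 0.05, 8 in the large cluster and 3 in the H cluster, beside 5.14% of all rows and 7.07% of the other OR rows. Knockout 2 was left out in part for its low values in these members, so the counts describe them and do not test them. The 8 were Olfr725 to Olfr730, Olfr735 and Olfr741, and the 3 were Olfr1507, Olfr1508 and Olfr1509. Only Olfr1512 was lower, beside 4.85% of all rows and 10.4% of the other OR rows. Knockouts 1, 3 and 4 lay above every control in 8 of the 31 members, where they did so in 4.62% of all rows and 4.98% of the other OR rows. The median difference was then 0.08 in the large cluster and 0.44 in the H cluster, beside -0.07 over the other OR rows.

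Because OR rows in general had lower values in the knockouts, each array was also centred on the mean of the 1004 other OR rows, which moved the median of all rows by 0.187. All 8 samples were kept. Then 5 members were higher at an unadjusted p under 0.05, namely Olfr730, Olfr725, Olfr727, Olfr729 and Olfr1509, and 0 were lower, beside 3.1% of all rows and 5.58% of the other OR rows that were higher. None had an adjusted p under 0.05, and the lowest, for Olfr730, was 0.417. The median difference on this scale was 0.15 in the large cluster and 0.24 in the H cluster, beside -0.0041 over the other OR rows and 0.19 over all rows. Above 0 on it were 21727 of all 23410 rows, so these medians are to be read against the other OR rows only. The H cluster's Olfr1510, lower on the deposited scale, differed by 0.03 on this scale. Olfr1512 differed by -0.10 (limma adjusted p = 0.756) on it, and by -0.14 (adjusted p = 0.462) after centring on the mature OSN markers, against -0.29 on the deposited scale, and it no longer had an unadjusted p under 0.05 on either.

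Sample by sample, the mean of the large cluster minus the mean of the other OR rows was 0.0076, -0.00033, -0.02 and -0.07 in controls 1 to 4 and 0.27, 0.04, 0.18 and 0.19 in knockouts 1 to 4. The groups did not overlap, though by a small gap, and knockout 2 was the closest to the controls. How often other OR clusters or rows do not overlap on this scale was not counted. For the H cluster this quantity was 0.33, 0.63, 0.17 and 0.15 in controls and 0.58, 0.40, 0.59 and 0.48 in knockouts. Here the groups overlapped through control 2, the highest of all.

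By family, MOR246 minus the other OR rows was 0.69, 0.96, 0.57 and 0.71 in controls 1 to 4 and 1.47, 0.61, 1.31 and 1.17 in knockouts 1 to 4. Knockouts 1, 3 and 4 exceeded every control, and knockout 2 did not. For Olfr730, the MOR247 row, the values were 0.59, -0.06, 0.75 and 0.74 in controls and 1.30, 1.14, 1.72 and 1.71 in knockouts, which did not overlap. For MOR244 they were -0.18, 0.31, -0.35 and -0.19 in controls and 0.54, -0.32, 0.40 and 0.35 in knockouts, so that again all knockouts but the second exceeded every control. MOR106 lay between -0.43 and -0.21 in all samples and MOR241 between -0.60 and -0.38, with overlapping groups in both. For Olfr735, the MOR243 row, the values were -0.43, -0.32, -0.55 and -0.51 in controls 1 to 4 and 0.07, -0.08, -0.30 and -0.24 in knockouts 1 to 4, which did not overlap. In MOR103, MOR223 and MOR242 the groups overlapped. How often other OR rows or families do not overlap on this scale was not counted.

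**Figure D4:**
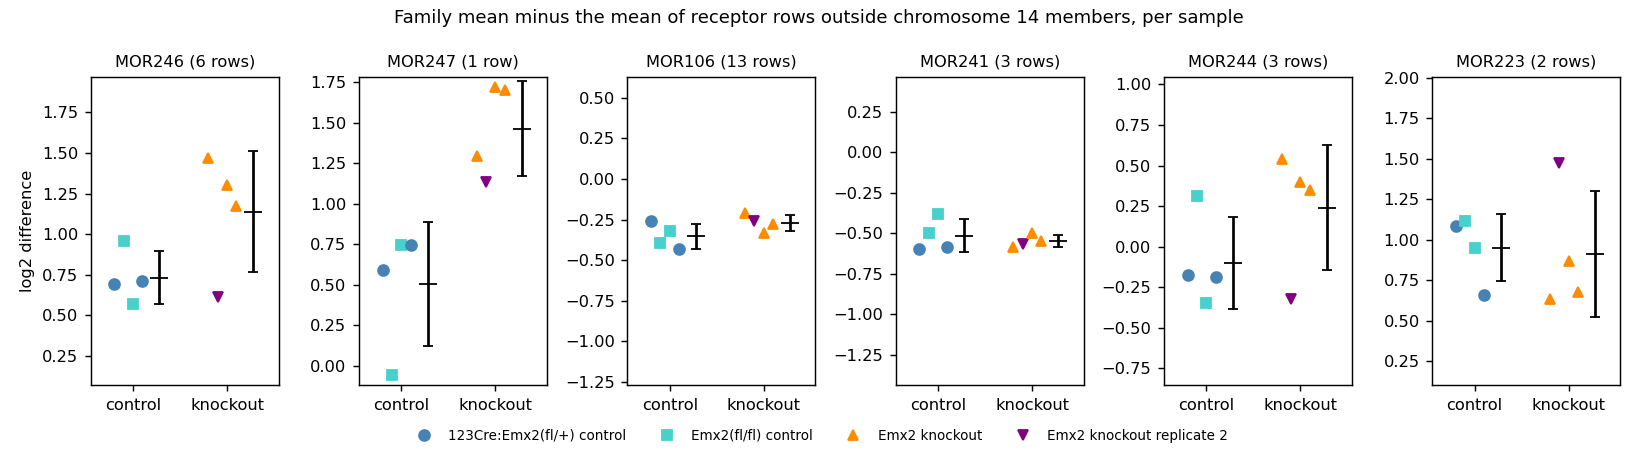
Mean log2 value of each family's chromosome 14 rows minus the mean of the 1004 other OR rows in the same sample, with the mean and SD of each group of 4 as bars; panels span the same number of log2 units. Knockouts 1, 3 and 4 exceed every control for MOR246, MOR247 and MOR244, while both groups overlap for MOR106, MOR241 and MOR223.

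The differences also varied with the order of the samples, but the first 4 hold knockout 2, and title order was not separated from that sample. Within the first 4 samples by title number, which hold knockouts 1 and 2 and controls 1 and 2, 25 of the 31 members (80.6%) were lower in knockouts, beside 82.9% of the other OR rows and 47.1% of all rows. Within the last 4, 20 of the 31 (64.5%) were higher, beside 34.7% of the other OR rows and 48.9% of all rows. The median difference was -0.36 in the first 4 and 0.47 in the last 4 for the H cluster, -0.18 and 0.05 for the large cluster, and -0.29 and -0.08 for the other OR rows. For Olfr1507 it was -0.54 and 0.65. In the first 4, Olfr1507 was 8.78 and 7.24 in knockouts 1 and 2 and 8.35 and 8.75 in controls 1 and 2. The mean of the other OR rows was 7.27 and 6.97 in these knockouts and 7.55 and 7.30 in these controls, so there both knockouts were lower. With title order as a term, 5 members had an unadjusted p under 0.05, beside 8.66% of all rows and 31.6% of the other OR rows. Olfr730 (limma adjusted p = 0.221) and Olfr1509 were higher, and Olfr1512, Olfr732 and Olfr739 were lower. The difference between the first and last 4 was tested as an interaction in limma, with no member at an adjusted p under 0.05 (lowest 0.939) and 2 at an unadjusted p under 0.05, beside 2.76% of all rows and 9.16% of the other OR rows.

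The control genotypes were compared with each other as well. Between 123Cre:Emx2(fl/+) and Emx2(fl/fl) controls, 1 of the 31 members, Olfr744, differed at an unadjusted p under 0.05, beside 2.04% of all rows. Against the Emx2(fl/fl) controls alone, the difference of Olfr1507 was -0.09, and against the 123Cre:Emx2(fl/+) controls alone it was 0.20. Each of these contrasts rests on 2 controls.

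Genes that flank the clusters but are not ORs were looked at for the same samples. Of 20 genes, the 5 nearest with a row on each side of both clusters, 1 differed at an unadjusted p under 0.05, Rnase1, a secreted ribonuclease (0.23, SE 0.092, adjusted p = 0.782). Their differences ran from -0.26 to 0.23 with a median of 0.06, and without knockout 2 from -0.16 to 0.37 with a median of 0.06. Rnase1 then differed by 0.20, and 1 of the 20, a T cell receptor gene, was at an unadjusted p under 0.05 (Trav7d-4, 0.37, named after its value was seen). Of the 13 non-OR genes that lie between Olfr749 and Olfr750, among them Parp2 and Apex1, which act in DNA repair, 0 differed at that threshold and differences ran from -0.14 to 0.15. Without knockout 2 they ran from -0.19 to 0.19, with 1 at that threshold (Osgep, -0.18, likewise named after its value was seen). Sall2, the zinc finger gene beside the H cluster, differed by -0.05 (SE 0.127), and by -0.16 without knockout 2.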

How the data were processed

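RNA of 8 olfactory mucosae was hybridised to 1-colour Affymetrix Mouse Gene 1.0 ST arrays, and the authors deposited log2 values per transcript cluster, made with Affymetrix Expression Console per the labels. Its version, the normalization and the annotation's build were not given in the sources used here. Rows were named from the platform annotation: of 35557 rows, 21789 had 1 symbol, 1621 several and 12147 none, and the 23410 rows with a symbol were tested. Knockouts were compared with controls by limma 3.58.1 in R 4.3.3 (lmFit and eBayes, two-sided, Benjamini-Hochberg over all tested rows), which was tested on simulated data. The simulated noise was independent between rows and samples, so that check did not cover a shift of many OR rows in a single sample.

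Members and lists were chosen with earlier results of these data known. Named were all H cluster rows, the 5 lowest and 5 highest of the large cluster, Emx2, Lhx2, Ldb1, Ebf1 to Ebf4, Omp, Gap43 and flanking genes at an unadjusted p under 0.05. Families were taken from MOR synonyms in RefSeq; this grouping, the genes named beyond the rule and the counts for knockouts 1, 3 and 4 were chosen after values were seen. Alternatives were other scalings, filters, tests, control genotypes, title order and leaving out each sample. The methods draw samples from several litters, but the labels do not tie samples to them, and replicate numbers follow deposit order, so the p-values cover only how these samples spread, which may be in part technical. Near-identical ORs may share probes, which was not tested. The number of arrays limits the precision.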

Additional observations from a re-analysis of the deposited data

Results flagged for a closer look

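Samples far from the rest of their group were looked for in 80 groups of 4 (the named rows and all members, in each group), by the gap to the nearest sample over the group's range. Chance marks about 1 in 20 such groups, and 6 of the 80 were marked. Knockout 2 was the marked sample in 4 of them, as the lowest knockout of Olfr725 (7.098, the nearest at 8.005), Olfr726 (8.541), Olfr744 (7.105) and Olfr1507 (7.244). Knockout 1 was the lowest of Olfr1510 (8.421, the nearest at 9.127). Control 2 was the highest of Ldb1 (12.62).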

How the results depend on the processing

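No paired analysis was possible because the labels give no replicate numbers that tie samples together. The count of rows called over all genes was 84; it was 28 with the methods' t-test, 20 after centring on the other OR rows, 27 without the dimmest rows, 224 with array weights, 32 against 123Cre:Emx2(fl/+) controls alone and 25 against Emx2(fl/fl) controls alone. Leaving out 1 sample gave 46 (without knockout 1) to 132 (without knockout 2), and 51 to 55 without controls 2, 3 or 4 or knockout 3. The 2 members at an unadjusted p under 0.05 became 1 with the t-test, without the dimmest rows and against 123Cre:Emx2(fl/+) controls alone, 0 against Emx2(fl/fl) controls alone, 5 after centring on mature OSN genes, on other OR rows or with title order as a term, and 13 with array weights, which gave knockout 2 a weight of 0.17; leaving out 1 sample gave 1 (without control 1, knockout 1 or knockout 4) to 12 (without knockout 2), with 4 without control 2 and 3 without control 4. Olfr725 passed the adjusted test with array weights (0.60, adjusted p = 0.0498). Of the 15 members named by rule, 12 kept their direction in every alternative run, though not their size: leaving out 1 sample, Olfr728 ran from 0.06 to 0.72, Olfr729 from 0.20 to 0.79, Olfr727 from 0.21 to 0.57, Olfr725 from 0.25 to 0.58, Olfr730 from 0.50 to 1.01, Olfr731 from -0.47 to -0.0037, Olfr733 from -0.41 to -0.05, Olfr739 from -0.55 to -0.16, Olfr748 from -0.58 to -0.22, Olfr732 from -0.47 to -0.20, Olfr1509 from 0.25 to 0.44 and Olfr1512 from -0.33 to -0.22. The large cluster rows among them were named as the 5 lowest and 5 highest differences of these same values, which favours a kept direction. Of the H cluster rows, which were not named by value, Olfr1509 and Olfr1512 kept their direction and Olfr1510, Olfr1507 and Olfr1508 did not. Olfr1510 (-0.25 to 0.020 leaving out 1 sample) was 0.026 after centring on other OR rows, Olfr1507 (-0.11 to 0.46) was -0.091 against Emx2(fl/fl) controls alone, and Olfr1508 ran from -0.17 to 0.52. The medians leaving out 1 sample ran from -0.13 to 0.08 in the large cluster and from -0.17 to 0.44 in the H cluster. Centring on mature OSN genes and on other OR rows turned Lhx2 (0.14 and 0.18), Ebf1 (0.034 and 0.074), Ebf2 (0.063 and 0.10), Ebf3 (0.018 and 0.058) and Omp (0.089 and 0.13) above 0. Lhx2 was also 0.0040 after quantile normalization, 0.014 centred on the median of non-receptor rows and 0.028 against 123Cre:Emx2(fl/+) controls alone, and -0.026 to 0.035 leaving out 1 sample. Ldb1 was -0.017 and Ebf4 -0.092 against Emx2(fl/fl) controls alone; leaving out 1 sample they ran from -0.011 to 0.097 and from -0.030 to 0.076. Emx2 was lower in every alternative, but not called after centring on other OR rows (-0.76, adjusted p = 0.468). The causes of these changes were not tested.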

Other observations

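Among 116 MOR families with at least 3 rows on the array, ranked by their median difference from the highest, MOR246 was the 2nd (median 0.31 over 6 rows) and MOR244 the 11th (0.07 over 3 rows). Without knockout 2, MOR246 was the 1st (0.58) and MOR244 the 3rd (0.46). MOR106 was the 22nd and, without knockout 2, the 26th. MOR223, of which 5 of 7 rows lie outside the chromosome 14 ranges, was the 53rd and the 87th. These ranks describe the same values as the report and carry no test.

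The array held 4 chromosome 14 ORs with a single symbol outside both ranges, which were looked at after values were seen. Olfr720 was 9.23, 9.29, 9.35 and 9.39 in controls 1 to 4 and 10.12, 9.31, 9.79 and 10.18 in knockouts 1 to 4, with knockout 2 again the lowest knockout. Its difference was 0.54 (SE 0.175, limma adjusted p = 0.662), and 0.72 without knockout 2. Olfr49 had the opposite sign, at -0.59 (SE 0.254, limma adjusted p = 0.817), and -0.38 without knockout 2. Olfr31 differed by 0.16 (SE 0.111), and by 0.19 without knockout 2. Olfr221, which lies between the clusters, differed by -0.08 (SE 0.153), and by 0.05 without knockout 2.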
